A study of Homo sapiens with 6 samples.

Results

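The genes described here are 10 genes of the YAP and TEAD pathway out of the 57914 genes of the deposited tables: the coactivators YAP1 and WWTR1 (which encodes TAZ), the TEAD factors TEAD1, TEAD2, TEAD3 and TEAD4, and ANKRD1, AMOTL2, AJUBA and LATS2, which are target and feedback genes. They were chosen by gene name, and all 10 were found and were high enough to be tested. RNA came from A375, an established human melanoma cell line grown in high-glucose DMEM with serum. Aldefluor, a substrate that turns fluorescent when aldehyde dehydrogenases (ALDH) act on it, was used to sort them. ALDH_High is the top 5% of cells by this signal and ALDH_Low the bottom 5%, with 3 libraries of each. All cells were of this 1 line and were stained and sorted alike, with no unsorted group here. That the libraries are separate samples rests on the labels, so p-values measure the spread between these libraries, which may be technical.

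YAP and TAZ are coactivators that do not bind DNA themselves. When the Hippo kinases (MST1 and MST2, encoded by STK4 and STK3, which act on LATS1 and LATS2) phosphorylate them, they are held in the cytoplasm or degraded; otherwise they enter the nucleus and act on genes bound by TEAD factors. Several of their targets, such as LATS2 and AMOTL2, restrain YAP and TAZ in turn. In melanoma the pathway is known for its part in invasion and in tolerance to BRAF inhibitors. Much of its control is by phosphorylation, which RNA does not show.

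Total counts per library lay between 26692868 and 37830603, and the 10 most abundant genes took 4.89% to 5.42% of them. ALDH_High library 1 stood apart from ALDH_High libraries 2 and 3 on the second principal component (53.6 against -23.6 and -35.7; 15.1% of the variance), so results were also computed without it. Of 7 melanocyte lineage markers, SOX10 and S100B were higher in ALDH_High, MITF was lower, and MLANA, TYR and DCT had too few counts to be tested. Of 5 leukocyte markers 1 was higher and 1 lower (sums of 2.84 to 6.90 CPM in ALDH_High, 1.87 to 2.73 CPM in ALDH_Low), with PTPRC and CD3E at 0 to 4 counts. Of 5 fibroblast markers 1 was lower (15.9 to 18.2 and 18.5 to 23.3 CPM), and of 5 keratinocyte markers 1 was lower (10.6 to 19.7 and 9.78 to 11.6 CPM), with TP63 at 0 to 8 counts. Their part in the results below was not tested. Levels between groups are given as CPM (counts scaled to a common library size with TMM factors), and levels between genes as the deposited TPM, which corrects for gene length. Differences are log2 fold changes of ALDH_High over ALDH_Low. A gene was called higher or lower where the edgeR quasi-likelihood adjusted p, over all 17047 genes tested, was below 0.05. In bulk RNA of this kind, fewer cells that express a gene and less RNA per cell cannot be told apart.

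In ALDH_High cells, 3 of the 4 target and feedback genes were lower (AJUBA, AMOTL2 and ANKRD1) and 1 was higher (LATS2), while the coactivators and TEAD factors did not pass the threshold. AJUBA was at 0.517 times and ANKRD1 at 0.439 times its ALDH_Low level, and LATS2 was 1.52-fold higher. Of the 10 genes, 1 was thus called higher and 3 lower, beside 10.8% of all genes tested that were called higher, 9.83% called lower and 20.6% called in either direction. The median log2 fold change was 0.0090 over the 10 genes and -0.013 over all genes tested. In CPM, the groups did not overlap in 7 of the 10 genes (3 higher, 4 lower), and in 37.8% of all genes tested. In the deposited TPM, the groups of YAP1 and ANKRD1, which are among these 7, overlapped. Without ALDH_High library 1 the counts were again 1 higher and 3 lower, beside 2172 higher and 2049 lower of all 17788 genes tested. ANKRD1 was then no longer among the lower genes (edgeR adjusted p 0.0579) and TEAD3 was (edgeR adjusted p 0.0353).

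**Figure D1:**
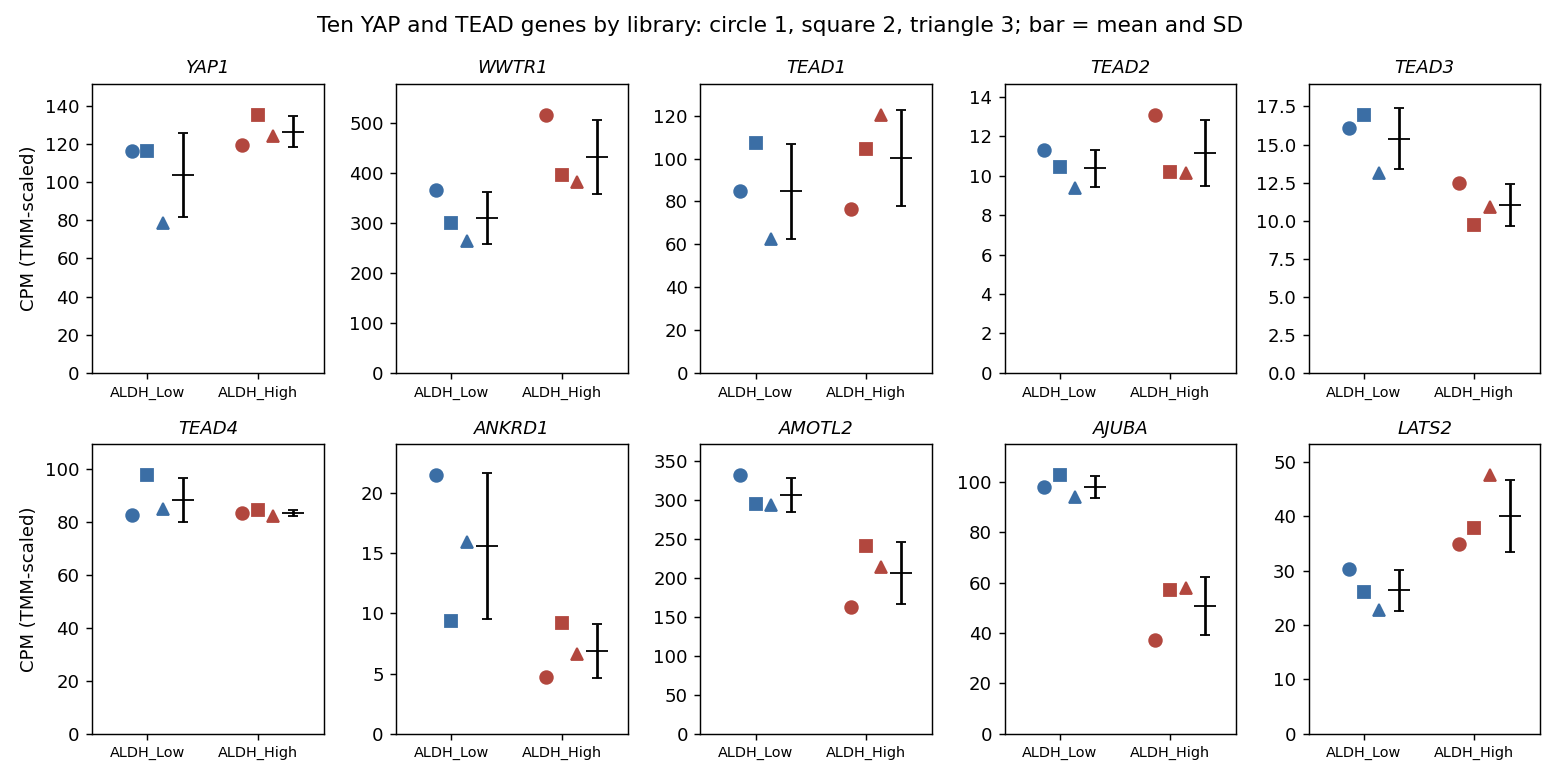
TMM-scaled CPM of the 10 genes in each library (y axis from 0, CPM), with ALDH_Low in blue and ALDH_High in red; circles, squares and triangles are libraries 1, 2 and 3, and the black bar gives the mean and SD of 3 libraries. AJUBA and AMOTL2 lay lower in all 3 ALDH_High libraries, LATS2 lay higher, and the groups of TEAD1, TEAD2 and TEAD4 overlapped.

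TEAD factors bind the letters GGAATG. They were searched on both strands, so that CATTCC counted too, in the 250 bases before each RefSeq start (GRCh38.p14). RefSeq windows matched 8 of the 10 genes; those of TEAD1 and TEAD4 were not matched. The letters stood in 4 of the 12 windows of these 8 genes (YAP1, ANKRD1, AMOTL2 and AJUBA), and in 11.9% of all 35116 windows. The target genes were chosen as known targets, so a larger share among them may come from that choice. The windows of ANKRD1, AMOTL2, AJUBA and LATS2 are shown because these members were called, with LATS2 as the one that rose. CCN2, which was not called, and NUAK2, which was, are further targets described later, with 3 and 2 matches. AMOTL2 and AJUBA have 2 windows each, and only the window with the letters is shown. Windows of other targets, called or not, are not shown. Capitals mark those letters on either strand, and each sequence ends at the base before the start.

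ANKRD1, chr10:90921088-90921337, minus strand: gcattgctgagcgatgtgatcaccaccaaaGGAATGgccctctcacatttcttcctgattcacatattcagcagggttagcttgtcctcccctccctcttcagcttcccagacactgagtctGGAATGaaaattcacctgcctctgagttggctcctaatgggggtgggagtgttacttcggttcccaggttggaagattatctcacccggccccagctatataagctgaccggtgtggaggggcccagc
AMOTL2, chr3:134374448-134374697, minus strand: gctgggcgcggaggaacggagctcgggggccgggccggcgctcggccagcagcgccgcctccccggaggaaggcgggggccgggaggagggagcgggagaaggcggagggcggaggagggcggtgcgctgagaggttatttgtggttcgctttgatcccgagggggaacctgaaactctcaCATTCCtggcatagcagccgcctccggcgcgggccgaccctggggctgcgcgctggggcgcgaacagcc
AJUBA, chr14:22976843-22977092, minus strand: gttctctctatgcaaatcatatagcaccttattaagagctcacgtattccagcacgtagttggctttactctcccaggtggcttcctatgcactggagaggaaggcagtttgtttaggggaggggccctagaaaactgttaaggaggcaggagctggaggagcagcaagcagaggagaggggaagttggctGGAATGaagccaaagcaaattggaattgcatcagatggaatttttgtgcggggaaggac
LATS2, chr13:21061587-21061836, minus strand: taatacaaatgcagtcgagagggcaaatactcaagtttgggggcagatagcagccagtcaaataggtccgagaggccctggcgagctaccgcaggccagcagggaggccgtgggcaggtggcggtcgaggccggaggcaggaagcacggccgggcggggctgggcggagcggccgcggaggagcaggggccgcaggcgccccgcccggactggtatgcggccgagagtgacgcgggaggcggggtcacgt
CCN2, chr6:131951373-131951622, minus strand: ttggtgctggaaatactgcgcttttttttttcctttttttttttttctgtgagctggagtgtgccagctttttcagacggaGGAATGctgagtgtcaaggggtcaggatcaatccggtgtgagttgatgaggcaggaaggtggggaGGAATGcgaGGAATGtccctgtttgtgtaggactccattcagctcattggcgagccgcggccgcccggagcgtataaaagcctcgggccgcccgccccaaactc
NUAK2, chr1:205321746-205321995, minus strand: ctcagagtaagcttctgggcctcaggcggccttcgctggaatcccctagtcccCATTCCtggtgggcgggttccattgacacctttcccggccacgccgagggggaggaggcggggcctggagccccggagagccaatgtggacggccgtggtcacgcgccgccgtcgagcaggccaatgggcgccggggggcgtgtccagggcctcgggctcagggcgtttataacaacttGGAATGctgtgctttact

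ANKRD1 carries the letters at 220 and 128 bases before its start, AMOTL2 at 69 bases before 1 of its 2 starts, and AJUBA at 59 bases before 1 of its 2 starts. The window of the other start held no match in AMOTL2 (chr3:134375418-134375667) or in AJUBA (chr14:22982552-22982801). For AJUBA, the window without a match is the one that abuts the annotated gene start, and the window shown lies inside the gene. No match was found in the LATS2 window, which says only that these letters are absent there. A match describes the letters and shows no binding.

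WWTR1 was the most abundant of the 10 genes per length in both groups, at 273 ± 27.6 TPM in ALDH_High and 191 ± 36.4 TPM in ALDH_Low (SD, n = 3). Its expression was 517, 396 and 382 CPM across libraries 1 to 3 of ALDH_High, against 365, 299.6 and 265 CPM across those of ALDH_Low. The groups were separate, with ALDH_High above ALDH_Low, the difference was 0.48 on the log2 scale (SE 0.16), and the edgeR adjusted p of 0.0547 just missed the threshold. WWTR1 passed in 4 of 15 alternative analyses (no low-count filter, DESeq2, a replicate term, and the fit without ALDH_Low library 1).

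YAP1, the paralog of TAZ, had 119.6, 135 and 124 CPM across libraries 1 to 3 of ALDH_High, against 116, 116 and 78.4 CPM across those of ALDH_Low. The groups did not overlap in CPM, but ALDH_High library 1 and ALDH_Low libraries 1 and 2 lay within a few CPM of each other (edgeR adjusted p 0.243, log2 fold change 0.28 with SE 0.16). In TPM the groups overlapped, with ALDH_High library 1 at 57.4 and ALDH_Low libraries 1 and 2 at 59.3 and 59.4. ALDH_Low library 3 was the lowest library for both coactivators, and without it the log2 fold change of YAP1 was 0.12. Their summed TPM was 363, 331 and 323 in ALDH_High libraries 1, 2 and 3 and 289, 248 and 194 in ALDH_Low libraries 1, 2 and 3, with no overlap (exact two-sided permutation p = 0.1, the lowest value possible here). The share of YAP1 in that sum was 19.5 ± 3.19% for ALDH_High beside 21.3 ± 2.38% for ALDH_Low (SD, n = 3), and the groups overlapped (exact permutation p = 0.6). The difference in this share, -1.83 percentage points, was smaller than the spread between libraries.

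**Figure D2:**
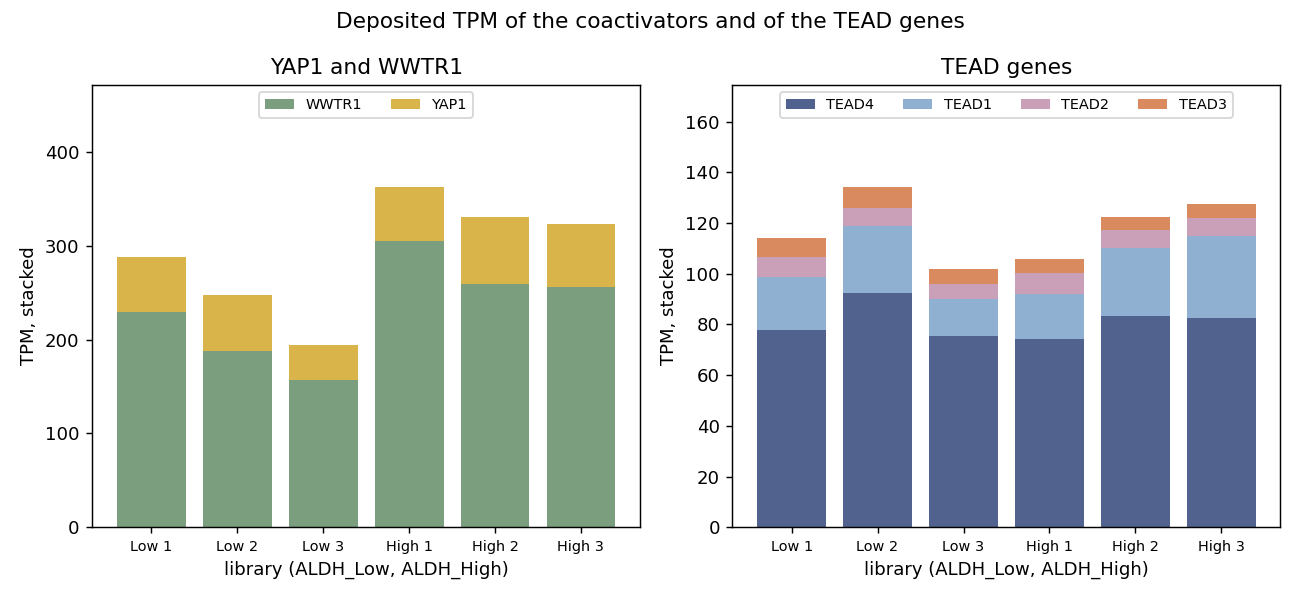
Deposited TPM of WWTR1 and YAP1 (left) and of the 4 TEAD genes (right), stacked per library; the y axes start at 0. The summed coactivator TPM was higher in the 3 ALDH_High libraries, WWTR1 took most of it in each library, and TEAD4 took most of the TEAD sum.

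Among the TEAD factors, TEAD4 was the most abundant per length, at 80.0 ± 5.13 TPM in ALDH_High and 81.9 ± 9.12 TPM in ALDH_Low (SD, n = 3). TEAD1 followed at 25.6 ± 7.17 and 20.8 ± 6.01 TPM, and TEAD2 (7.59 ± 0.631 and 6.88 ± 0.835 TPM) and TEAD3 (5.35 ± 0.435 and 7.27 ± 1.18 TPM) were the lowest. TEAD2 lay above TEAD3 in each ALDH_High library, and in ALDH_Low their values crossed. The summed TPM of the 4 genes was 119 ± 11.3 in ALDH_High and 117 ± 16.2 in ALDH_Low (SD, n = 3; exact permutation p = 0.9).

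TEAD3 had 12.5, 9.70 and 10.9 CPM across libraries 1 to 3 of ALDH_High, against 16.1, 17.0 and 13.1 CPM across those of ALDH_Low. Each ALDH_High value lay below each ALDH_Low value, but the log2 fold change of -0.48 did not pass (SE 0.17, edgeR adjusted p 0.066). Its share of the TEAD sum was 4.55 ± 0.690% for ALDH_High beside 6.22 ± 0.480% for ALDH_Low (SD, n = 3), also without overlap (exact permutation p = 0.1, and 0.4 adjusted over the 4 shares). TEAD4 made up 67.6 ± 2.59% for ALDH_High beside 70.3 ± 3.19% for ALDH_Low (SD, n = 3), and its groups overlapped.

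TEAD4 had 83.3, 84.6 and 82.1 CPM across libraries 1 to 3 of ALDH_High, against 82.5, 97.6 and 84.8 CPM across those of ALDH_Low (edgeR adjusted p 0.657, log2 fold change -0.08 with SE 0.11). TEAD4 thus stood at much the same level in the 6 libraries, with ALDH_Low library 2 the highest. TEAD1 had 76.3, 104 and 121 CPM across libraries 1 to 3 of ALDH_High, against 84.7, 107 and 62.5 CPM across those of ALDH_Low. The TEAD1 groups overlapped widely (edgeR adjusted p 0.473, log2 fold change 0.24 with SE 0.21). TEAD2 had 13.1, 10.2 and 10.1 CPM across libraries 1 to 3 of ALDH_High, against 11.3, 10.4 and 9.38 CPM across those of ALDH_Low, again with overlap (edgeR adjusted p 0.737, log2 fold change 0.10 with SE 0.17), and its difference changed sign to -0.013 without ALDH_High library 1.

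AJUBA encodes a LIM-domain protein that binds LATS kinases and limits their action on YAP (ENSG00000129474, chromosome 14, 22971177 to 22982551, GRCh38). It had 37.4, 56.9 and 57.9 CPM across libraries 1 to 3 of ALDH_High, against 97.9, 103 and 93.9 CPM across those of ALDH_Low. Every ALDH_High library held less AJUBA RNA than any ALDH_Low library, and ALDH_High library 1 held the least. The means were 50.7 ± 11.6 CPM for ALDH_High beside 98.1 ± 4.38 CPM for ALDH_Low (SD, n = 3), a difference beyond the spread (edgeR adjusted p 0.00243, log2 fold change -0.95 with SE 0.16). AJUBA passed in 14 of 15 alternatives, with log2 fold changes from -1.04 to -0.76. A read-through gene annotated on the same strand overlaps AJUBA and had 0 to 144 counts per library, at most 10.9% of the AJUBA count, so the sharing of reads between them is uncertain.

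AMOTL2 encodes an angiomotin-like protein that binds YAP and TAZ and holds them outside the nucleus (ENSG00000114019, chromosome 3, 134355347 to 134375479). Its values were 162, 240.2 and 214 CPM across libraries 1 to 3 of ALDH_High, against 331, 294 and 293 CPM across those of ALDH_Low. Here too all ALDH_High libraries were lower and library 1 was the lowest. The means were 206 ± 39.7 CPM for ALDH_High beside 306 ± 21.8 CPM for ALDH_Low (SD, n = 3) (edgeR adjusted p 0.0195, log2 fold change -0.57 with SE 0.15). AMOTL2 passed in 10 of 15 alternatives. Without ALDH_Low library 1 its log2 fold change was -0.50 and without ALDH_Low library 3 it was -0.61, and in both fits the call was lost.

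ANKRD1 encodes an ankyrin-repeat protein of muscle and is among the most widely used readouts of YAP and TEAD (ENSG00000148677, chromosome 10, 90912096 to 90921087). Its values were low and scattered: 4.73, 9.20 and 6.60 CPM across libraries 1 to 3 of ALDH_High, against 21.5, 9.33 and 16.0 CPM across those of ALDH_Low. ALDH_Low library 2 and ALDH_High library 2 were almost alike, while ALDH_Low libraries 1 and 3 lay well above. In TPM the groups overlapped, with ALDH_High library 2 at 7.11 and ALDH_Low library 2 at 6.94. The means were 6.84 ± 2.25 CPM for ALDH_High beside 15.6 ± 6.08 CPM for ALDH_Low (SD, n = 3) (edgeR adjusted p 0.0239, log2 fold change -1.18 with SE 0.31). ANKRD1 passed in 8 of 15 alternatives and in 2 of 6 fits that each omitted a library. Its log2 fold change ranged from -1.45 without ALDH_Low library 2 to -0.86 without ALDH_Low library 1.

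LATS2, the Hippo kinase that phosphorylates YAP and TAZ and is itself induced by them, went the other way (ENSG00000150457, chromosome 13, 20973036 to 21061586). It had 34.9, 37.9 and 47.5 CPM across libraries 1 to 3 of ALDH_High, against 30.2, 26.0 and 22.8 CPM across those of ALDH_Low. All ALDH_High libraries were higher, and the means were 40.1 ± 6.63 CPM for ALDH_High beside 26.4 ± 3.72 CPM for ALDH_Low (SD, n = 3) (edgeR adjusted p 0.0207, log2 fold change 0.60 with SE 0.16). LATS2 passed in 9 of 15 alternatives, and the call was lost without ALDH_High library 3 (0.48), ALDH_Low library 2 (0.59) or ALDH_Low library 3 (0.51). LATS2 lies on chromosome 13. There, 91.5% of the 177 protein-coding genes averaging 5 CPM or more had a positive log2 fold change, and the median was 0.37. LATS2 lay 0.24 above that median; the part of the chromosome in this result was not tested. On the chromosomes of the other 9 genes this median lay between -0.017 and 0.027.

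**Figure D3:**
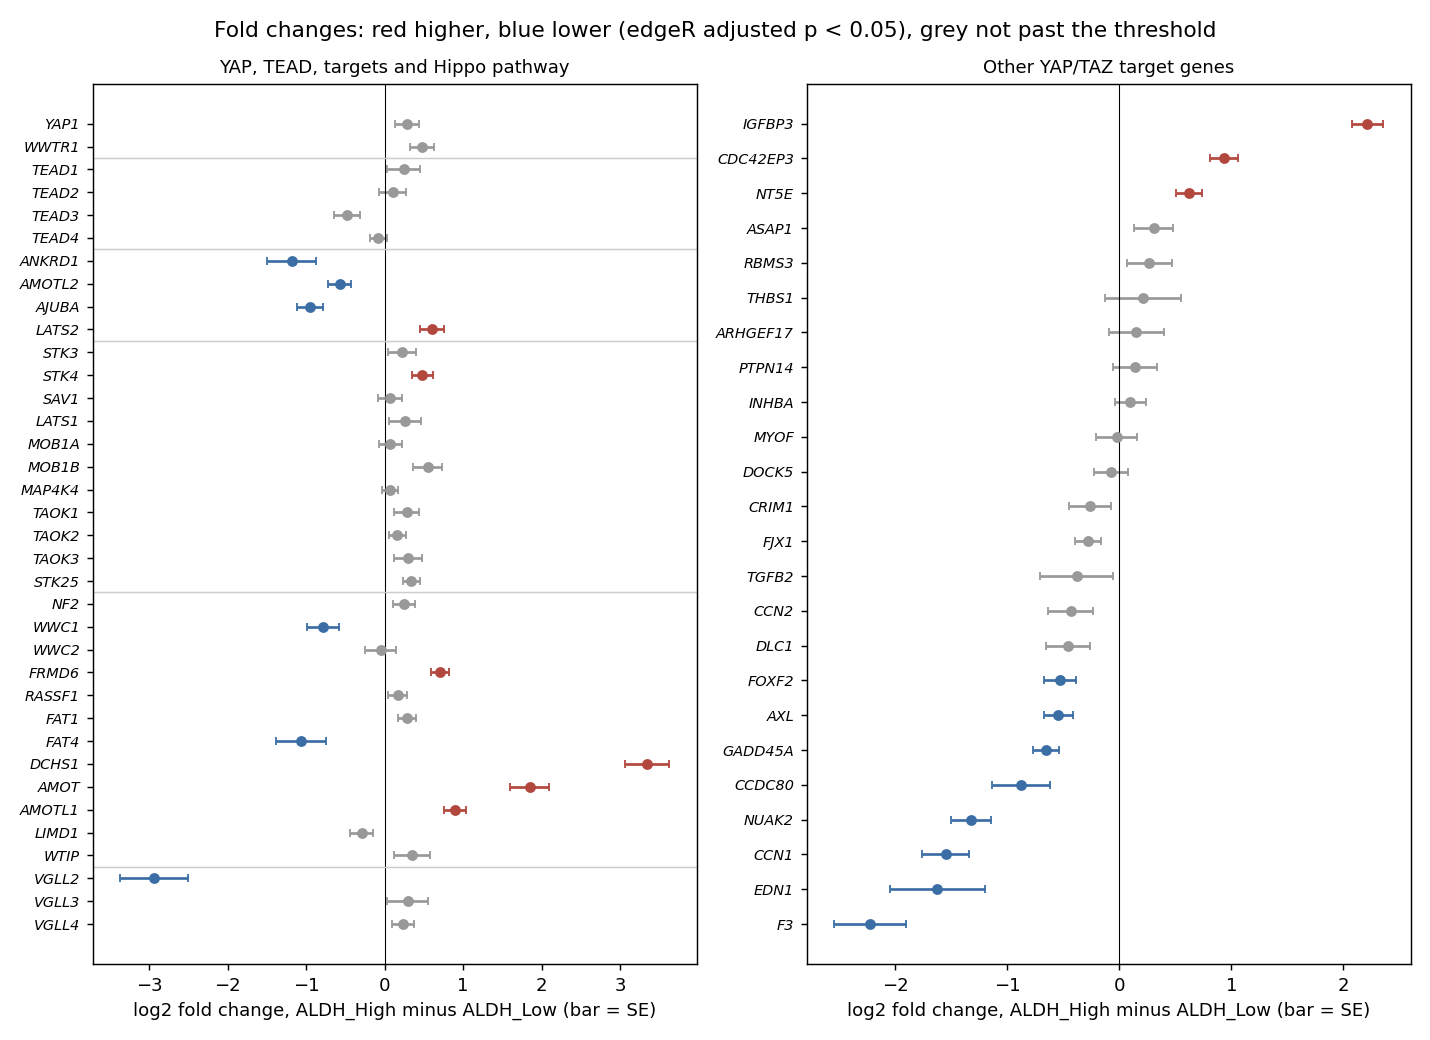
Log2 fold change of ALDH_High over ALDH_Low (x axis) with its standard error for the 10 genes, Hippo kinases, upstream regulators and VGLL cofactors (left, groups separated by grey lines in that order) and for other targets (right). Red marks genes called higher, blue genes called lower (edgeR adjusted p below 0.05), and grey the rest; F3 and IGFBP3 lie at the ends of the right panel, at -2.22 and 2.21.

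The authors' deposited table sets each sorted group against a group named 1A3 in a model of 5 groups. There the coefficient of the high group lay below that of the low group by -0.93 for AJUBA and -0.55 for AMOTL2. It also lay below it by -1.16 for ANKRD1 and -0.46 for TEAD3. It lay above it by 0.63 for LATS2, 0.50 for WWTR1 and 0.31 for YAP1. These coefficients come from the same libraries.

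Of 25 further genes known as YAP and TAZ targets, all tested, 9 were lower in ALDH_High, 3 were higher and 13 did not pass, beside 9.83% of all genes tested called lower and 10.8% called higher. Without ALDH_High library 1, 9 were lower and 5 higher. Their median log2 fold change was -0.28, against -0.013 over all genes tested. Among the lower genes were CCN1, AXL, F3, FOXF2, GADD45A, CCDC80, NUAK2 and EDN1, and the higher ones were IGFBP3, NT5E and CDC42EP3. The list held genes that many other signals also induce, and it was chosen with earlier results of these data known.

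CCN1, formerly CYR61, encodes a secreted matrix-associated protein and is a standard YAP readout. It had 112, 214 and 185 CPM across ALDH_High, against 546, 428 and 523 CPM across ALDH_Low, with no overlap and the lowest value in ALDH_High library 1. The means were 170.4 ± 52.3 CPM for ALDH_High beside 499 ± 62.5 CPM for ALDH_Low (SD, n = 3) (edgeR adjusted p 6.35e-04, log2 fold change -1.55 with SE 0.21), and CCN1 passed in 15 of 15 alternatives. CCN2, formerly CTGF, the paralog most often measured beside it, had 133, 207 and 184 CPM across ALDH_High, against 300.4, 178 and 231 CPM across ALDH_Low. Its groups overlapped, since ALDH_Low library 2 lay below ALDH_High libraries 2 and 3, and CCN2 did not pass (edgeR adjusted p 0.173, log2 fold change -0.44 with SE 0.20).

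NUAK2, a kinase that feeds back on YAP, had 8.56, 11.03 and 8.33 CPM across ALDH_High, against 27.9, 20.5 and 21.4 CPM across ALDH_Low (edgeR adjusted p 5.72e-04, log2 fold change -1.32 with SE 0.18). NUAK2 was lower in every ALDH_High library. F3, tissue factor, which starts blood coagulation, had a log2 fold change of -2.22 (SE 0.32, edgeR adjusted p 8.79e-04). AXL, the receptor tyrosine kinase that marks dedifferentiated, drug-tolerant melanoma cells, had 398, 474 and 432 CPM across ALDH_High, against 612, 735 and 556 CPM across ALDH_Low (edgeR adjusted p 0.0137, log2 fold change -0.55 with SE 0.13). The AXL groups were separate, but its call was lost in 5 of 15 alternatives.

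Other lower targets had log2 fold changes of -1.62 (EDN1, endothelin-1), -0.88 (CCDC80), -0.66 (GADD45A, a stress-induced growth arrest gene) and -0.53 (FOXF2). EDN1 passed in 7 of the 12 alternatives that tested it, CCDC80 and FOXF2 each in 8 of 15, and GADD45A in 15 of 15. Among the 6 fits with 1 library omitted, EDN1 and CCDC80 each passed in 2 and FOXF2 in 1. EDN1 rested on 4, 19 and 14 counts in ALDH_High libraries 1, 2 and 3. IGFBP3, an insulin-like growth factor binding protein, had 217, 174 and 158 CPM across ALDH_High, against 38.5, 37.6 and 42.1 CPM across ALDH_Low and was higher in every ALDH_High library (edgeR adjusted p 7.56e-06, log2 fold change 2.21 with SE 0.14). CDC42EP3, an effector of the GTPase CDC42, had 159, 129 and 140.2 CPM across ALDH_High, against 82.2, 72.1 and 69.3 CPM across ALDH_Low (edgeR adjusted p 4.87e-04, log2 fold change 0.94 with SE 0.12). NT5E, the ectonucleotidase CD73, had a log2 fold change of 0.62 (edgeR adjusted p 0.0038). The target genes therefore differed in direction among themselves, as the members did.

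**Figure D4:**
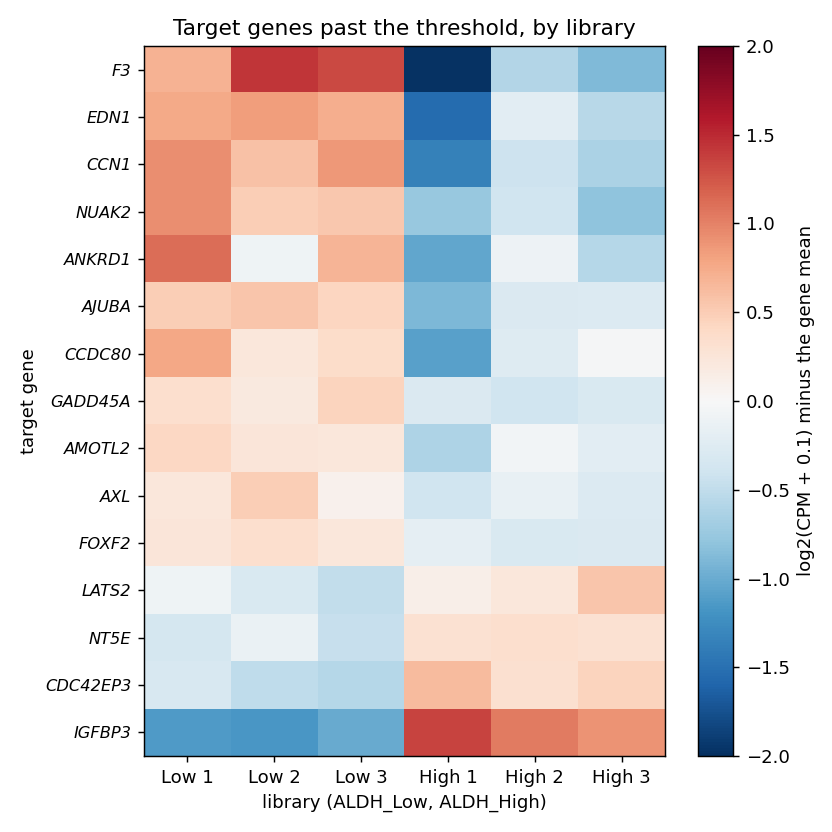
Expression of target genes past the threshold (4 of the 10 genes, and further targets) in each library, as log2(CPM + 0.1) minus the mean of the gene; blue is below and red above that mean, and the colour scale ends at -2 and 2. The lower targets, from F3 to FOXF2, are mostly darkest in ALDH_High library 1, and the 4 higher ones, LATS2, NT5E, CDC42EP3 and IGFBP3, lie at the bottom.

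Of 11 Hippo kinases and adaptors, 1 was higher, 0 were lower and 10 did not pass, beside 10.8% of all genes tested called higher and 9.83% called lower. Their median log2 fold change was 0.26. Without ALDH_High library 1, 2 were higher and 0 lower. STK4, which encodes MST1, was the one past the threshold, with 68.9, 85.9 and 86.6 CPM across ALDH_High, against 61.8, 60.6 and 50.5 CPM across ALDH_Low (edgeR adjusted p 0.0283, log2 fold change 0.48 with SE 0.13). Its call was lost in 8 of 15 alternatives, 5 of them fits without 1 library. For the other 10, which include STK3, SAV1, LATS1 and both MOB1 genes, adjusted p lay between 0.0537 (STK25) and 0.815 (SAV1).

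Of 12 upstream regulators, 4 were higher and 2 lower, beside 10.8% of all genes tested called higher and 9.83% called lower. Their median was 0.27. AMOT, the founding angiomotin, had 35.5, 28.4 and 30.0 CPM across ALDH_High, against 12.6, 6.39 and 6.97 CPM across ALDH_Low (edgeR adjusted p 5.23e-04, log2 fold change 1.85 with SE 0.24). AMOTL1, its close relative, had 296, 289 and 272 CPM across ALDH_High, against 185, 147 and 127 CPM across ALDH_Low (edgeR adjusted p 0.00146, log2 fold change 0.90 with SE 0.14). Both were higher in all ALDH_High libraries, whereas AMOTL2, the third angiomotin, was lower. Per length, AMOTL2 stood at 70.3 ± 17.1 TPM, AMOTL1 at 48.0 ± 1.88 TPM and AMOT at 7.66 ± 0.460 TPM in ALDH_High (SD, n = 3). In ALDH_Low they stood at 100.4 ± 9.38, 24.9 ± 5.43 and 2.06 ± 0.854 TPM, in the same order in every library.

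DCHS1, a large cadherin that binds FAT4, had 11.6, 7.58 and 7.45 CPM across ALDH_High, against 1.06, 0.770 and 0.755 CPM across ALDH_Low (edgeR adjusted p 3.48e-05, log2 fold change 3.34 with SE 0.28). FAT4, its partner, was lower with groups that overlapped (edgeR adjusted p 0.0368, log2 fold change -1.06 with SE 0.31). FRMD6, a FERM-domain protein that acts on the Hippo kinases, had 77.4, 78.3 and 86.9 CPM across ALDH_High, against 51.0, 52.3 and 45.7 CPM across ALDH_Low (edgeR adjusted p 0.00156, log2 fold change 0.70 with SE 0.11). WWC1, known as KIBRA, had a log2 fold change of -0.78 (edgeR adjusted p 0.0209). NF2, the tumour suppressor merlin, did not pass (0.25, adjusted p 0.285). DCHS1, AMOT, AMOTL1 and FRMD6 passed in every alternative that could test them, while WWC1 lost its call in 6 of 15 and FAT4 in 5 of 13. Without ALDH_High library 1 the upstream regulators counted 7 higher and 0 lower, beside 2172 higher and 2049 lower of all 17788 genes tested.

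Of the 4 VGLL genes, whose proteins compete with YAP and TAZ for TEAD factors, 3 were tested. VGLL2 had 2, 5 and 5 counts in ALDH_High libraries 1, 2 and 3 and 46, 24 and 27 in ALDH_Low libraries 1, 2 and 3 and was lower (edgeR adjusted p 9.92e-04). VGLL4 and VGLL3 did not pass (0.23 and 0.29). VGLL1 had 0 counts in every library, which allows up to 3 counts in each.

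Lists for other programs were counted in the same fit, in which 10.8% of all genes tested were called higher and 9.83% lower. Of 11 immediate early genes, 4 were lower (JUNB, ATF3, DUSP1 and ZFP36), 0 were higher and 7 did not pass, with a median log2 fold change of -0.81. Their summed level ran from 992 to 2005 CPM in ALDH_High and from 1441 to 2525 CPM in ALDH_Low, and these ranges overlapped. Of 10 genes of the G2 and M phases, 5 were higher, 0 were lower and 5 did not pass, with a median of 0.53 and sums of 3236 to 3552 CPM in ALDH_High and 1955 to 2277 CPM in ALDH_Low. The part of either program in the results for the YAP and TEAD genes was not tested.

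**Figure D5:**
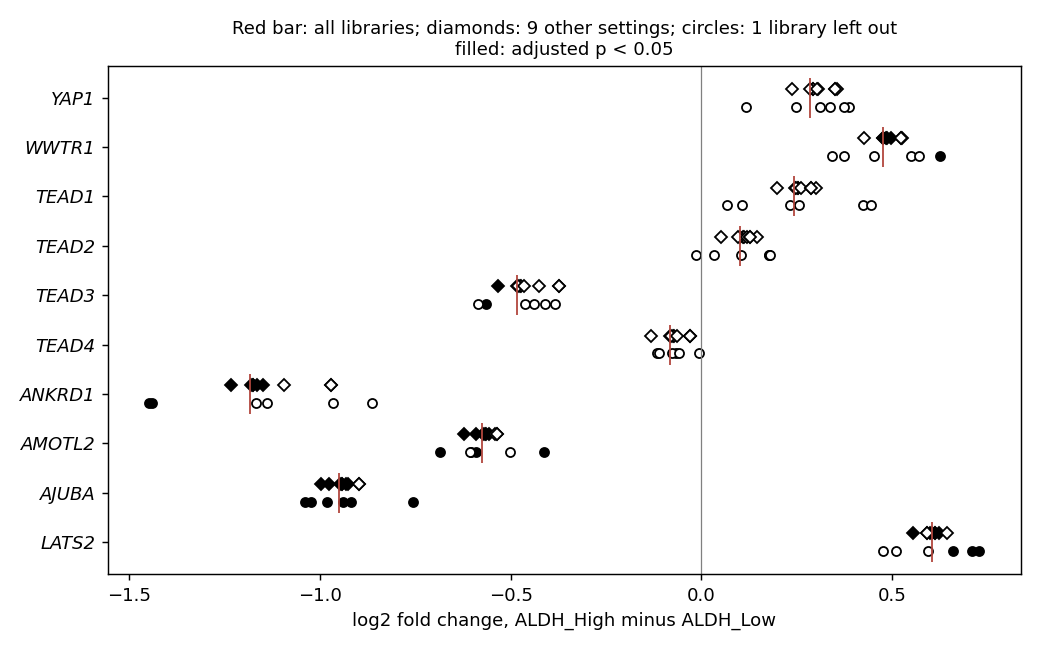
Log2 fold change of each of the 10 genes under 15 alternative analyses (x axis): the red bar is the value reported, diamonds are 9 other settings, circles are 6 fits that each left out 1 library, and filled symbols had an adjusted p below 0.05. AJUBA is filled in 14 of 15, and TEAD2 is the one gene with a value on the other side of 0.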

How the data were processed

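RNA was measured in 6 libraries of sorted A375 cells, made with a stranded mRNA kit per the labels' protocols. STAR 2.5.1b, HTSeq 0.6.1, FastQC 0.11.3, DESeq2 and GRCh38 are named in the submitters' processing notes, without their roles; the annotation release and the use of strand in counting are not given in the sources used here. The authors deposited estimated counts rounded to whole numbers: in each library 133 to 177 genes had a count of 0 beside a TPM above 0. The TPM values deposited by the authors sum to the same total in every library. The deposited log2 coefficients are, per the file headers, against the group named 1A3. That they come from DESeq2 is inferred from the processing notes, since the headers do not name the tool.

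From the estimated counts, genes were kept with filterByExpr (17047 left), scaled with TMM and compared in edgeR 4.0.16 by glmQLFit and glmQLFTest (two-sided, Benjamini-Hochberg over all genes, threshold 0.05), without the replicate number as a term. The design had assumed raw counts, and the same test was used. Each SE equals the absolute log2 fold change over the root of its F value. Rows without a gene name held at most 0.0267% of a library's counts and stayed in. The script was tested on simulated data. No pair of libraries in a group agreed to within sampling noise (chi-square per degree of freedom 12.1 to 50.1). Precision is limited by 3 libraries a group; limits from counts cover counting error only, since reads carry no molecular identifiers. Gene positions are those of GENCODE 44, and promoter windows those of RefSeq GRCh38.p14.

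The members, gene lists and tests were chosen with earlier results of these data known. All 10 members were named; of the pathway and target lists, every gene past the threshold, with full values for the 4 with the smallest p, and CCN1, CCN2 and AXL whatever their p. Other lists are given by counts. A detail on some genes of these lists is not reported here. STK25, SAV1, NF2, VGLL3, VGLL4, THBS1, MYOF, FOS and EGR1 were singled out after their values were seen. Alternatives were DESeq2 1.42.0 size factors, upper-quartile factors, no low-count filter, at least 10 counts in every library, a replicate block, the DESeq2 Wald test, limma 3.58.1 on log2(TPM + 1) and log2(TPM + 0.1) with a mean TPM of at least 1 and on log2(TPM + 1) without that filter, and each library left out in turn.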

Additional observations from a re-analysis of the deposited data

How the results depend on the processing

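No alternative moved a called member to the other direction. Over all genes, 3513 were past the threshold, 2006 in limma on log2(TPM + 1) with no TPM filter (a larger set of genes tested), and 2488 to 4221 with 1 library left out. Members called higher numbered 2 in place of 1 without a low-count filter, with the replicate block and in DESeq2, each time through WWTR1 (log2 fold changes 0.49, 0.48 and 0.50), and 0 in limma on log2(TPM + 1), log2(TPM + 0.1) and without the TPM filter. Members called lower numbered 1, 1 and 0 in these 3 limma fits. There ANKRD1 (-0.97, -1.09 and -0.97), AMOTL2 (-0.53, -0.54 and -0.53) and LATS2 (0.59, 0.65 and 0.59) missed the threshold, as did AJUBA without the TPM filter (-0.90); the cause was not tested. TEAD3 passed with upper-quartile factors (-0.53). With 1 library left out, members called higher numbered 0 to 2 and members called lower 1 to 3, and log2 fold changes ran from 0.34 to 0.63 for WWTR1, -0.013 to 0.18 for TEAD2, -0.59 to -0.38 for TEAD3, -1.45 to -0.86 for ANKRD1, -0.69 to -0.41 for AMOTL2 and 0.48 to 0.73 for LATS2. The share of TEAD2 in the TEAD sum differed by -0.13 to 0.94 percentage points. Hippo kinases past the threshold numbered 2 with DESeq2 size factors and without a low-count filter, 3 in DESeq2, 0 in limma without the TPM filter and 0 to 2 with 1 library left out. Upstream regulators numbered 3 and 3 in limma with the TPM filter. VGLL genes numbered 0 with at least 10 counts in every library and 0 in the limma fits with the TPM filter, where VGLL2 was not tested, and their median was 0.066 to 0.29 with 1 library left out.

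The replicate block gave 3748 genes over all. The deviations of same-numbered libraries correlated at 0.14, 0.058 and 0.099. Every library correlated best with its own number, a hint from the data, but not all values were above 0.1, and the numbers were treated as unpaired. Counts near the threshold rest on 3 libraries a group. EDN1 (4 to 45 per library) and VGLL2 (2 to 46) rest on few counts, and ANKRD1 (120 to 828) on scattered values.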

Other observations

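Within ALDH_High, library 1 differed from libraries 2 and 3 in opposite directions for different genes that are often read beside YAP activity. THBS1, thrombospondin-1, had 1095, 3394 and 3279.7 CPM across ALDH_High, against 1872, 2559 and 2272 CPM across ALDH_Low. MYOF, a membrane repair protein, had 356, 608 and 589.8 CPM across ALDH_High, against 484, 579 and 517 CPM across ALDH_Low. For these and for CCN1, CCN2, AMOTL2 and AJUBA, ALDH_High library 1 held the lowest value of its group. FOS had 142, 54.7 and 54.1 CPM across ALDH_High, against 162, 142 and 114 CPM across ALDH_Low, and EGR1 had 270.1, 85.6 and 50.1 CPM across ALDH_High, against 389.9, 166 and 154 CPM across ALDH_Low, so that ALDH_High library 1 held the highest value of its group for these immediate early genes. Not every gene of either kind went this way. The targets IGFBP3 and CDC42EP3 were highest of their group in ALDH_High library 1, and the immediate early gene ATF3 was highest in library 3. The median deviation of the 25 further targets from their gene means (log2 scale) was -0.39 in ALDH_High library 1, 0.055 and -0.013 in libraries 2 and 3, and 0.23, 0.19 and 0.089 in ALDH_Low libraries 1, 2 and 3.

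The TEAD letters were also counted by the direction of the target, a split made after the values were seen. Among the 29 target genes (4 members and 25 others), 12 were lower; RefSeq windows matched 9 of them, and 7 held the letters (AJUBA, AMOTL2, ANKRD1, AXL, EDN1, FOXF2 and NUAK2). All 4 higher genes were matched and 0 held the letters. Of the 13 that did not pass, 8 were matched and 4 held them (CCN2, PTPN14, TGFB2 and THBS1). By window, the letters stood in 7 of 14 for the lower genes, 0 of 6 for the higher and 4 of 8 for the rest. They stood in 11.9% of all windows. AJUBA, AMOTL2, AXL and EDN1 each held them at only 1 of their starts. For AJUBA, AXL and EDN1 this was another start, and the window that abuts the annotated gene start held none. The counts by gene take a match at any start. Windows cover 250 bases, and genes with more starts have more windows. These counts carry no test, and a link between the letters and the direction was not tested.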
